A study of Mus musculus with 6 samples.

Results

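Ribosome biogenesis factors are the proteins that make ribosomal RNA and build it into ribosomal subunits without being part of the finished ribosome. Members were chosen by gene symbol from a list of 60 such factors, and all 60 were among the 23420 genes of the deposited values. Each of them exceeded the level of 10 reads in at least 3 samples, the filter that left 11233 genes for testing.

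The study concerned gene induction through TLR9, the endosomal receptor for unmethylated CpG DNA, in B cells that were purified with beads from the spleens of BALB/c mice of WT genotype. CpG-stimulated samples were cultured for 4 hours with 10 µg/mL of a synthetic CpG oligonucleotide and unstimulated samples received no agonist. Mice were aged 7 to 11 weeks, and 10 M cells were plated per sample. There were 3 samples in each group, of which replicates 1 and 2 were female and replicate 3 was male. Whether samples with the same number came from the same mouse was not stated. Values are log2 CPM after quantile normalization, and the value of a gene without reads corresponded to a library of 17.8 M reads on genes.

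Ribosome production starts in the nucleolus, where RNA polymerase I (Pol I) transcribes a long precursor of the ribosomal RNAs. Small nucleolar RNA-protein particles (snoRNPs) modify the precursor, the small subunit (SSU) processome folds and cleaves it, and further factors mature the small (40S) and large (60S) subunits up to their export. Resting lymphocytes are small cells with few ribosomes, and their nucleoli enlarge when they prepare to divide.

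CpG-stimulated B cells had higher levels of nearly all of these factors. CpG raised 58 of the 60 factors at an FDR under 0.05 in limma, where 37.6% of all genes tested were raised. A log2FC over 1 was reached by 44 factors, against 15.8% of genes tested. Gnl3l was the only factor that was lowered, where 36.7% of genes tested were lowered, and Taf1d was the only factor called in neither direction. In 58 factors all stimulated samples were above all unstimulated samples, as was the case for 39.1% of genes tested. The median log2FC was 1.22 over the factors, with quartiles at 0.98 and 1.49, and 0.00 over all genes tested. The median standard error (SE) of a factor's log2FC was 0.08. These are bulk samples scaled to a common total. A change in the share of cells that express a gene and a change in its RNA per cell cannot be told apart. Nor is a change in total RNA per cell visible.

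**Figure D1:**
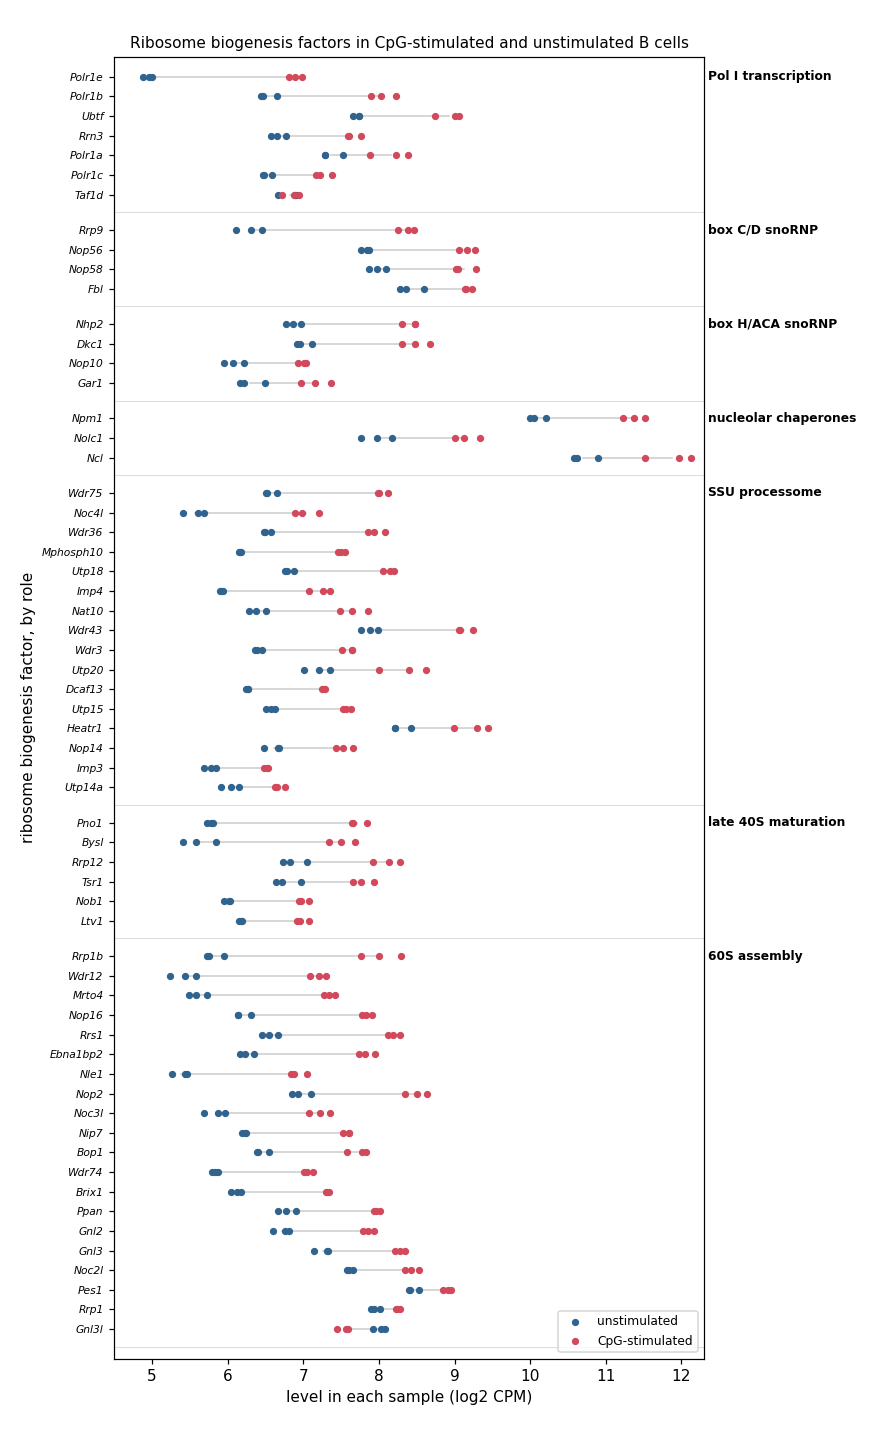
Level of each of the 60 ribosome biogenesis factors in the 3 CpG-stimulated (red) and 3 unstimulated (blue) samples, in log2 CPM, grouped by role; grey lines join the group means. The groups are apart in the same direction for 58 factors, in the opposite direction for Gnl3l, and overlap for Taf1d.

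Of the 7 factors of Pol I transcription, 6 were raised, 3 of them with a log2FC over 1, and the median log2FC was 0.98. Polr1e encodes PAF53, a subunit that helps load the polymerase at its promoter. Polr1e was at 6.98, 6.82 and 6.89 log2 CPM in stimulated replicates 1 to 3 and at 4.95, 4.88 and 4.996 in unstimulated replicates 1 to 3. Its groups were far apart relative to the spread within them, with a log2FC of 1.95 (SE 0.07, FDR 2.07e-08). Polr1b, a large catalytic subunit, had a log2FC of 1.53, and the other catalytic subunit, Polr1a, had one of 0.80. The subunit Polr1c, which Pol I shares with Pol III, had a log2FC of 0.74. Ubtf, which binds and opens the ribosomal gene promoter, had a log2FC of 1.22. Rrn3, the factor that makes the polymerase competent to start, lay just under the fold threshold with a log2FC of 0.98.

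Taf1d, a subunit of the selectivity factor SL1, was at 6.88, 6.94 and 6.71 log2 CPM in the stimulated samples and at 6.89, 6.91 and 6.66 in the unstimulated samples. Its groups overlapped, and replicate 3 was the lowest of both. Its log2FC was 0.02 (SE 0.09, FDR 0.812), the sign turned when stimulated replicate 2 or unstimulated replicate 3 was left out, and Taf1d was raised by 0.25 when samples were centred on cytosolic ribosomal proteins. Taf1d shares 235 exon bases with 4931406C07Rik on the opposite strand. The library kit keeps the strand of each RNA, but whether strand was used in counting was not stated, so counts of such a pair are uncertain.

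All 4 listed proteins of box C/D snoRNPs, most of which guide methylation of ribosomal RNA, were raised, with a median log2FC of 1.24. Rrp9 is the protein particular to the U3 snoRNP, the particle that pairs with the precursor for its early cleavages. Rrp9 was at 8.46, 8.25 and 8.38 log2 CPM in the stimulated samples and at 6.45, 6.30 and 6.11 in the unstimulated samples. Stimulated samples were higher by 2.08 on the log2 scale (SE 0.09, FDR 4.67e-08), without overlap. Nop56 and Nop58, the scaffold pair of every box C/D particle, had log2FC values of 1.34 and 1.14. In Nop58 the stimulated samples were at 9.29, 9.02 and 9.04 log2 CPM and the unstimulated samples at 8.09, 7.97 and 7.86 (SE 0.09, FDR 1.15e-06), with replicate 1 the highest of each group.

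Fbl, the methyltransferase of these particles, changed least among the 4. It was at 9.13, 9.15 and 9.23 log2 CPM in the stimulated samples and at 8.60, 8.36 and 8.27 in the unstimulated samples. The stimulated samples lay close together, above a wider unstimulated group, and the log2FC was 0.76 (SE 0.08, FDR 1.59e-05). Of the stretches of 75 bases in Fbl transcripts, 63.4% also occur in other annotated genes, so its counts are uncertain. The same share was 26.7% for Nop56.

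The 4 listed proteins of the box H/ACA snoRNPs, which guide pseudouridylation, were all raised, with a median log2FC of 1.20. Dkc1, the pseudouridine synthase, had a log2FC of 1.49, and Nhp2, which binds the guide RNA, had one of 1.55. The small subunits Nop10 and Gar1 were under the fold threshold with log2FC values of 0.91 and 0.88. Gar1 was unlike most factors in that stimulated replicate 3, at 7.37 log2 CPM, was above stimulated replicates 1 and 2, at 6.97 and 7.15.

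Nucleolar proteins with chaperone roles were raised in 3 of 3 cases, with a median log2FC of 1.19. Npm1, nucleophosmin, was at 11.52, 11.22 and 11.38 log2 CPM in the stimulated samples and at 10.21, 10.05 and 10.00 in the unstimulated samples. The difference of 1.29 (SE 0.09, FDR 7.36e-07) was several times the range within either group. Ncl, nucleolin, was at 12.13, 11.52 and 11.97 log2 CPM in the stimulated samples and at 10.90, 10.58 and 10.62 in the unstimulated samples. Replicate 2 was the lowest of both groups in Ncl, and its stimulated SD of 0.32 was the largest of all 60 factors. The log2FC of Ncl was 1.18 (SE 0.15, FDR 4.74e-05). Nolc1, which shuttles between nucleolus and cytoplasm and binds snoRNPs, had a log2FC of 1.19. For Npm1, 23.7% of stretches of 75 bases also occur in other annotated genes.

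The SSU processome, a large particle that assembles on the precursor during transcription, contributed 16 factors. All 16 were raised, 12 with a log2FC over 1, and the median was 1.22, with a range from 0.65 to 1.48. Wdr75, Wdr43, Utp15 and Heatr1 belong to the complex that binds the precursor earliest. Wdr75 had the largest log2FC of the 16, at 1.48, and Wdr43 had one of 1.25. Utp15 was just over a log2FC of 1, with 1.0003, and Heatr1, a long scaffold of repeats, was just under it with 0.96. Wdr36, Utp18 and Wdr3, which sit in the complex around the U3 RNA, had log2FC values of 1.44, 1.33 and 1.20, and Wdr3 shares 820 exon bases with Spag17 on the opposite strand.

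Mphosph10, Imp3 and Imp4 form a complex that stabilizes the pairing of U3 with the precursor. Mphosph10 and Imp4 were raised with log2FC values of 1.34 and 1.31, whereas Imp3 was raised with 0.74. Noc4l and Nop14, which join the particle as partners, had log2FC values of 1.46 and 0.93. Nat10, an RNA acetyltransferase, had a log2FC of 1.27, Utp20 one of 1.15 and Dcaf13 one of 1.01. The smallest change was in Utp14a, which activates the helicase that releases U3. Utp14a was at 6.76, 6.63 and 6.66 log2 CPM in the stimulated samples and at 6.15, 6.04 and 5.91 in the unstimulated samples. Its groups did not overlap, with a log2FC of 0.65 (SE 0.08, FDR 2.71e-05), and it shares 473 exon bases with a noncoding gene on the opposite strand.

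All 6 factors of late small subunit maturation were raised, 5 with a log2FC over 1, and the median was 1.13. Pno1 holds the end of the small subunit RNA until the nuclease Nob1 cleaves it. Pno1 was at 7.84, 7.66 and 7.64 log2 CPM in the stimulated samples and at 5.78, 5.72 and 5.80 in the unstimulated samples. The unstimulated samples spanned less than 0.1, and the log2FC was 1.95 (SE 0.07, FDR 2.09e-08). Nob1 itself was just over the fold threshold with a log2FC of 1.001. Bysl, which stays on the particle until it reaches the cytoplasm, was at 7.68, 7.34 and 7.499 log2 CPM in the stimulated samples and at 5.85, 5.58 and 5.41 in the unstimulated samples. Its log2FC was 1.89 (SE 0.12, FDR 2.86e-07), without overlap between the groups. Bysl shares 361 exon bases with Ccnd3 on the opposite strand. Rrp12, an export adaptor, had a log2FC of 1.24, and the placeholder factors Tsr1 and Ltv1 had values of 1.01 and 0.81. Tsr1 shares 1240 exon bases with Srr on the opposite strand, which makes its counts uncertain.

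Large subunit assembly was the most populated role, with 20 factors, of which 19 were raised, 16 with a log2FC over 1, and 1 was lowered. The median log2FC was 1.32. Rrp1b, one of a pair of related nucleolar proteins, had the largest log2FC of all 60 factors. Rrp1b was at 8.29, 7.76 and 7.995 log2 CPM in the stimulated samples and at 5.94, 5.73 and 5.76 in the unstimulated samples. All stimulated samples were higher by well over the spread within groups, with a log2FC of 2.20 (SE 0.12, FDR 1.35e-07), or 4.61-fold. The related gene Rrp1 was at 8.28, 8.24 and 8.23 log2 CPM in the stimulated samples and at 8.01, 7.89 and 7.93 in the unstimulated samples. Its groups did not overlap either, but the log2FC was 0.31 (SE 0.06, FDR 7.87e-04).

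Pes1, Bop1 and Wdr12 form the PeBoW complex, which is needed to process the large subunit RNAs. Wdr12 was at 7.30, 7.09 and 7.20 log2 CPM in the stimulated samples and at 5.58, 5.43 and 5.24 in the unstimulated samples. Stimulated samples were all higher, with a log2FC of 1.78 (SE 0.09, FDR 1.07e-07). Bop1 had a log2FC of 1.28. Pes1 was at 8.95, 8.85 and 8.91 log2 CPM in the stimulated samples and at 8.52, 8.40 and 8.41 in the unstimulated samples. This was a small shift without overlap, with a log2FC of 0.46 (SE 0.06, FDR 7.45e-05). Stretches shared with other annotated genes made up 13.1% of Pes1.

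Mrto4 occupies the place of a stalk protein until late in maturation. Mrto4 was at 7.42, 7.34 and 7.27 log2 CPM in the stimulated samples and at 5.73, 5.57 and 5.49 in the unstimulated samples. Its log2FC was 1.75 (SE 0.08, FDR 4.82e-08), with both groups in the same order of replicates. Nop16, a nucleolar assembly factor, was at 7.91, 7.83 and 7.77 log2 CPM with CpG and at 6.30, 6.13 and 6.14 without. The groups were separated by more than 1.4 in every comparison of samples, and the log2FC was 1.65 (SE 0.07, FDR 4.14e-08).

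Rrs1 helps bring the 5S RNA particle into the large subunit. Rrs1 was at 8.28, 8.11 and 8.19 log2 CPM in the stimulated samples and at 6.67, 6.55 and 6.45 in the unstimulated samples. Its log2FC was 1.64 (SE 0.07, FDR 4.95e-08), without overlap. Ebna1bp2, an early assembly factor, was at 7.95, 7.73 and 7.81 log2 CPM with CpG and at 6.35, 6.22 and 6.16 without. In it too, every stimulated sample was the higher, with a log2FC of 1.59 (SE 0.08, FDR 7.11e-08). The remaining factors of this role with a log2FC over 1 ranged from 1.02 in Gnl3, nucleostemin, to 1.54 in Nle1. They included the methyltransferase Nop2, with a log2FC of 1.54, Noc3l with 1.38, Nip7 with 1.36, Wdr74 with 1.23, Brix1 with 1.20, Ppan with 1.19 and the GTPase Gnl2 with 1.14. Noc2l, a partner of Noc3l, had a log2FC of 0.82 and shares 598 exon bases with Samd11 on the opposite strand.

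Gnl3l, a nucleolar GTPase related to nucleostemin, went the other way. It was at 7.59, 7.57 and 7.44 log2 CPM in the stimulated samples and at 8.07, 8.02 and 7.93 in the unstimulated samples. Every stimulated sample lay below every unstimulated sample, with a log2FC of -0.47 (SE 0.07, FDR 9.35e-05). Gnl3l lies on chromosome X of GRCm38 from 150983141 to 151017322 on the minus strand, and Gnl3 on chromosome 14 from 31012433 to 31019152 on the minus strand.

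Related or partnered factors could thus be followed within each sample, where a shift common to all genes cancels. These 13 pairs were chosen after the values were seen for how they differed, so they are described and not tested. The log2 ratio of Rrp1b to Rrp1 was 0.01, -0.48 and -0.23 in stimulated replicates 1 to 3 and -2.06, -2.16 and -2.18 in unstimulated replicates 1 to 3. The log2 ratio of Gnl3 to Gnl3l was 0.76, 0.72 and 0.77 with CpG and -0.75, -0.71 and -0.79 without. Both ratios separated the groups by much more than the replicates differed. Within PeBoW, the log2 ratio of Wdr12 to Pes1 moved from a mean of -3.03 to -1.71, and that of Bop1 to Pes1 from -2.00 to -1.18. Within Pol I, the mean log2 ratio of Polr1e to Polr1a went from -2.42 to -1.27. Within box C/D snoRNPs, that of Rrp9 to Fbl went from -2.12 to -0.80, and within late small subunit factors that of Pno1 to Nob1 from -0.23 to 0.72. Mphosph10 and Imp4 changed alike, with log2FC values of 1.34 and 1.31, but Imp3 of the same complex had one of 0.74.

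**Figure D2:**
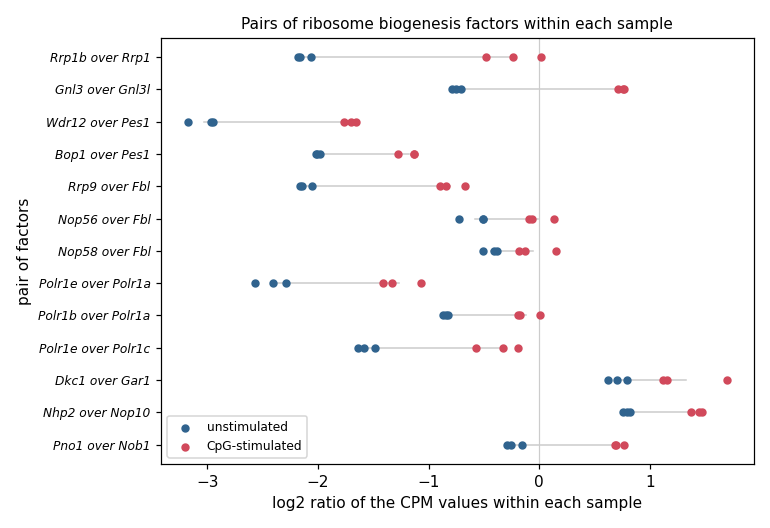
Log2 ratio of 2 ribosome biogenesis factors within each sample for 13 pairs, with CpG-stimulated samples in red and unstimulated samples in blue; grey lines join the group means. Every pair has its stimulated ratios above its unstimulated ratios without overlap, most widely for Rrp1b over Rrp1.

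Levels were compared between genes per kb of each gene's main annotated transcript. Npm1 had the highest unstimulated level, at 9.38 log2 CPM per kb, followed by Fbl at 8.15, Ncl at 7.66, Nop58 at 7.20 and Rrp1 at 6.96. This order depends on the annotation, as the transcript taken for Ncl was 8202 bases long. With CpG, Npm1, Fbl and Ncl remained the highest, at 10.67, 8.91 and 8.84 log2 CPM per kb. Rrp1 moved from rank 5 to 13 among the 60, Taf1d from 9 to 27 and Gnl3l from 19 to 55. Upward, Pno1 moved from rank 34 to 17 and Rrp9 from 22 to 7. Across the 60 genes, the unstimulated level per kb and the log2FC had a Pearson correlation of -0.39. Both measures contain the unstimulated values, and genes are not independent replicates. Log2 transcript length and log2FC had a correlation of 0.07 across the factors.

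**Figure D3:**
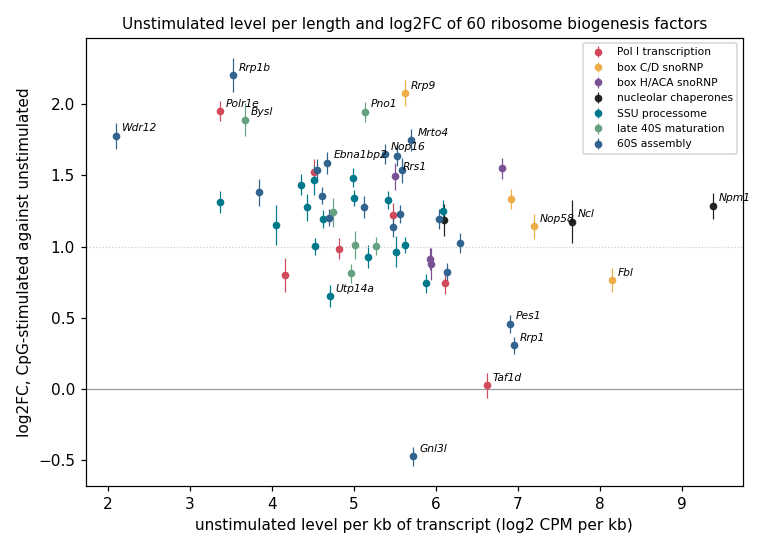
Unstimulated level per kb of transcript (log2 CPM per kb) against log2FC of CpG-stimulated over unstimulated samples for the 60 factors, colored by role, with bars of 1 SE. Npm1 lies at the far right with a log2FC of 1.29, and Gnl3l is the only factor below 0 by more than its SE.

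Replicates of one condition were not spread evenly around their mean in these genes. Replicate 1 was the highest stimulated sample in 53 of the 60 factors and the highest unstimulated sample in 51, compared with 37.6% and 36.4% of all genes tested. Replicate 2 was the lowest stimulated sample in 41 factors, or 68.3%, compared with 41.7% of genes tested. Replicate 3 was the lowest unstimulated sample in 42 factors, or 70.0%, compared with 31.3% of genes tested. The deposited values also included 4426 genes with a value below that of a gene without reads, which no step named in the sources gives, so an order of replicate numbers need not be an order of libraries. Taken by number, the median difference over the factors was 1.26, 1.14 and 1.33 for numbers 1, 2 and 3, and 58, 59 and 59 factors were higher in the stimulated sample.

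Replicate 2 differed in other respects. Stimulated replicate 2 was lower than the other stimulated samples chiefly in factors with long transcripts, with a Pearson correlation of -0.71 between log2 transcript length and that difference across the 60 factors, and of -0.14 across 10169 genes tested. For unstimulated replicate 2 against the other unstimulated samples, the correlation across the 60 factors was -0.32. Erythroid markers were also higher in replicate 2 of both groups. All 5 of them had a mean over 10 reads, with Beta-s the most abundant at 9.80 log2 CPM, and their summed level was 384, 4915 and 612 CPM in the stimulated samples and 404, 3848 and 499 CPM in the unstimulated samples. Without replicate 2 of both groups, an alternative added after these values were seen, 58 factors were raised, 46 of them with a log2FC over 1, and the median log2FC was 1.29. What part transcript length has in the order of replicates was not tested.

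B cell markers were present in all samples, with 9 of 9 over 10 reads and a median of 8.77 log2 CPM. Their summed level was 3122, 3536 and 3545 CPM in the stimulated samples and 4205, 4202 and 4851 CPM in the unstimulated samples. Of the 9, 5 were lowered, among them Cd22, Cd79a and Cd79b with log2FC values of -2.40, -1.63 and -1.17, and 3 were raised. Among all genes tested, 36.7% were lowered and 37.6% raised. Pax5, also lowered, had an FDR in limma of up to 0.344 under the alternatives. No marker of T cells (0 of 6) or of NK cells (0 of 4) had a mean over 10 reads across the 6 samples. The NK marker Klrb1c passed this level in 2 of the 3 stimulated samples, at -0.84, 0.23 and 0.23 log2 CPM with CpG and at -4.27, -4.79 and -4.90 without. Of the markers of myeloid cells, 3 of 6 had a mean over 10 reads, the highest being Emr1 at 2.75 log2 CPM. The summed level of the 6 was 9.75, 15.4 and 14.1 CPM with CpG and 6.74, 12.6 and 13.02 CPM without. Emr1 was higher with CpG (log2FC 0.83) and Csf1r lower (-1.61). The means of S100a8 (-2.68), S100a9 (-1.08), Lyz2 (-0.21) and Itgam (-0.07) were also lower. The groups overlapped in all of these but Csf1r. Of the markers of plasmacytoid dendritic cells, 3 of 4 had a mean over 10 reads, with Bst2 the highest at 4.35 log2 CPM. The defining marker Siglech had a mean below 3 reads. The summed level of the 4 was 41.8, 44.3 and 35.7 CPM with CpG and 31.3, 32.5 and 30.0 CPM without. For plasma cells, 4 of 4 markers had a mean over 10 reads, with Igj at 9.19 log2 CPM. The sums of plasmacytoid dendritic cell markers were higher with CpG, with Bst2 higher (log2FC 0.92) and Ccr9 and Il3ra lower (-0.94 and -0.38). In Il3ra the groups overlapped, and its FDR in limma was 0.0492, or up to 0.329 under the alternatives. Summed plasma cell markers were at 468, 532 and 602 CPM in the stimulated samples and at 828, 874 and 1182 CPM in the unstimulated samples, and the part of any of these cells in the result was not tested.

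Further genes of ribosome production were described from a list of 118 that are not among the 60. CpG raised 105 of them, 59 with a log2FC over 1 (37 with treat), lowered 6 (3 with samples centred on cytosolic ribosomal proteins) and changed 7 in neither direction at an FDR under 0.05, and their median log2FC was 0.996. The 10 with the largest log2FC were Cd3eap, a Pol I subunit and partner of Polr1e, with 2.15, the processome protein Tbl3 with 2.07, and Pop1 and Rpp40 of RNase MRP with 1.99 and 1.79. Also among them were the H/ACA assembly factor Shq1 with 1.80, Pwp1 with 1.77, Rrp15 with 1.73, the methyltransferase Dimt1 with 1.68, the ATPase Ruvbl2 with 1.66 and the kinase Riok2 with 1.62. These 10 were picked by log2FC, and in each the groups did not overlap. All stimulated samples were above all unstimulated samples in 106 of the 118, and in 39.1% of genes tested. The 5 most negative were Gltscr2, now called Nop53, with -0.99, Sbds with -0.63, Znrd1, a Pol I subunit, with -0.55, Ttf1, which ends Pol I transcription, with -0.43, and the kinase Riok3 with -0.38; Ttf1 and Riok3 were not called when samples were centred on cytosolic ribosomal proteins. Gltscr2, at 8.53 log2 CPM in stimulated and 9.52 in unstimulated samples, fell more than any of the 60 factors (SE 0.06, FDR 2.95e-07). For Pol I transcription, 5 of the 9 listed genes outside the 60 were raised (55.6%, against 37.6% of genes tested), and their median log2FC was 0.52.

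Most genes of cytosolic ribosomal proteins were not raised with the factors. Of 78 such genes tested, 4 were raised (5.13%, against 37.6% of genes tested) and 40 lowered (51.3%, against 36.7%), with a median log2FC of -0.19. The number lowered was 33 to 55 with 1 sample left out and 47 with the replicate block. With samples centred on the median of these same genes, 15 were raised and 16 lowered with a median of 0.03, all genes tested shifted by 0.22, and 59 of the 60 factors were raised. Among 76 genes of mitochondrial ribosomal proteins, 67 were raised (88.2%) and 2 lowered (1 to 2 with 1 sample left out, 0 with that centring), with a median of 0.87. Rn45s, the gene of the ribosomal RNA precursor, was at 13.01, 12.89 and 13.24 log2 CPM in the stimulated samples and at 12.66, 12.89 and 12.89 in the unstimulated samples. It was chosen after its values were seen; its groups overlapped at replicate 2, and the log2FC was 0.23 (SE 0.11, FDR 0.0906). This call depended on the samples and the scaling, as the FDR was 0.0163 without CpG-stimulated replicate 2, 0.00454 with samples centred on cytosolic ribosomal proteins, and up to 0.308 otherwise. The libraries were made with a stranded mRNA kit, which does not measure ribosomal RNA well.

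**Figure D4:**
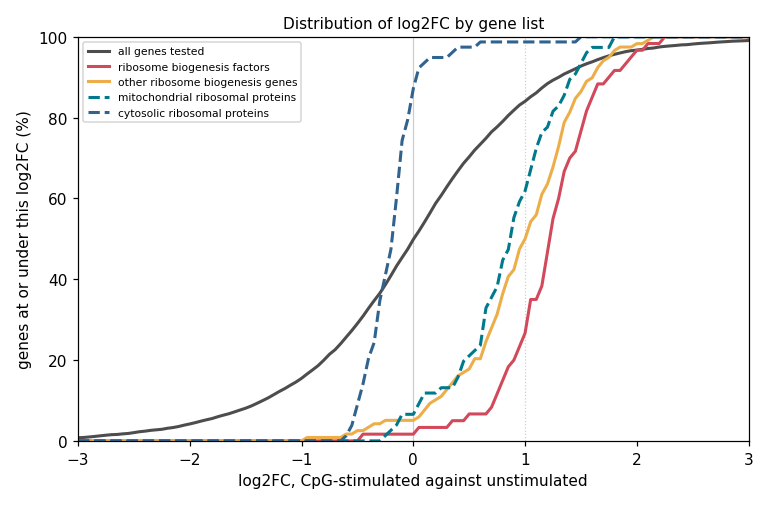
Share of genes at or under each log2FC (CpG-stimulated against unstimulated) for all 11233 genes tested, the 60 ribosome biogenesis factors, 118 other ribosome biogenesis genes, 76 mitochondrial and 78 cytosolic ribosomal protein genes. The factors have the highest median, at 1.22, and that of cytosolic ribosomal proteins lies left of 0 for most genes.

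Myc, whose protein activates many genes of ribosome production, was at 11.01, 10.70 and 10.91 log2 CPM in the stimulated samples and at 9.96, 9.88 and 9.63 in the unstimulated samples. Its groups did not overlap, with a log2FC of 1.05 (SE 0.10, FDR 7.77e-06), and of 10 tested genes of its network, Myc and Mycn were raised (20%, against 37.6% of genes tested) and 4 were lowered (40%, against 36.7%). The most negative was Mxd4, which encodes a repressor, with a log2FC of -3.19. Among the 4 lowered, Mxi1 had an FDR in limma of up to 0.405 under the alternatives. Max, called in neither direction, had an FDR down to 0.00276 under them.

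MYC and its partners bind the E-box CACGTG, so promoters were searched for these letters, which read the same on both strands. RefSeq windows from 250 bases before to 50 bases after the gene start were matched for 51 of the 60 factors, in 60 windows on GRCm38.p6. The letters were in 11 of the 60 windows (18.3%), against 10.4% of windows of genes tested and 7.15% of all windows. The median log2FC was 1.25 for the 11 factors with the letters and 1.21 for the 40 without. In 7 of the 11, among them Pno1 and Wdr43, the letters lay after the start. In the other 4 they lay before it, and these stretches are shown because they place the motif upstream in factors that were raised. They begin up to 40 bases before the motif, end before the gene start, and have the motif in capitals. The Nop2 stretch is chr6:125131783-125131868 on the plus strand, with the motif 60 bases before the start. The Rrn3 stretch is chr16:13780611-13780696 on the plus strand, 48 bases before the start, and Rrn3 has a further copy upstream of it. The Imp4 stretch is chr1:34439668-34439753 on the plus strand, 121 bases before the start. The Utp18 stretch is chr11:93885767-93885826 on the minus strand, 20 bases before the start.
Nop2: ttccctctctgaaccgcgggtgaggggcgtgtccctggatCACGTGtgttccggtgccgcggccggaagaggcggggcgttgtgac
Rrn3: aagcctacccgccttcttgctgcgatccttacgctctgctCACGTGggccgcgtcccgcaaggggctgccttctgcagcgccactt
Imp4: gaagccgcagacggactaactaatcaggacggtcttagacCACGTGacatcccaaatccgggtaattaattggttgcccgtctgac
Utp18: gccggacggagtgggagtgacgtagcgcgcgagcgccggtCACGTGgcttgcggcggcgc
A match is a description of the window and does not show binding.

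Several of these genes also carry small nucleolar RNAs in their introns. GENCODE M21 places 31 snoRNA genes inside 9 of the factors on the same strand, and 11 of these, in Gnl3, Ncl, Nop56, Nop58, Tsr1 and Wdr43, had values. The filter on low values was passed by 6. Of these, Snord69, Snord57 and Snord91a passed only because of the stimulated samples, so they are described without a test. Snord69 in Gnl3 was at 1.61, 1.50 and 1.33 log2 CPM with CpG and at -0.36, -0.85 and -0.997 without. Snord57 in Nop56 was at 1.26, 1.09 and 1.23 log2 CPM with CpG and at -0.43, -1.24 and -0.40 without. In both, all stimulated samples were the higher. Snord91a in Tsr1 was at 0.14, 0.21 and -0.18 log2 CPM with CpG and at -0.45, -0.86 and -0.09 without, and its groups overlapped.

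The other 3 passed in each group alone. Snord19 in Gnl3 was at 1.60, 1.64 and 1.31 log2 CPM with CpG and at 0.15, -0.50 and 0.21 without. Its groups did not overlap, with a log2FC of 1.56 (SE 0.27, FDR 3.78e-04). Snora75 in Ncl was raised with a log2FC of 1.29 (SE 0.24, FDR 8.10e-04), and Snord53 in Wdr43 was not called, with 0.53 (SE 0.29, FDR 0.123). Under the alternatives the FDR of Snord53 in limma ranged from 0.0396 to 0.282. The libraries were made with an mRNA kit. Whether reads counted for snoRNA genes came from the snoRNA or from RNA of its host was not tested. Snord69, Snord57, Snord19 and Snora75 overlap an annotated exon of their host, so reads of host and snoRNA cannot be told apart in them. Their sequences on GRCm38 are shown to place them within their hosts, with each CTGA, the letters of box D, in capitals; Snora75, an H/ACA RNA, holds none. Snord69 is chr14:31014287-31014366 on the minus strand, Snord19 chr14:31016206-31016281 on the minus strand, Snord57 chr2:130278016-130278087 on the plus strand and Snora75 chr1:86351169-86351301 on the minus strand.
Snord69: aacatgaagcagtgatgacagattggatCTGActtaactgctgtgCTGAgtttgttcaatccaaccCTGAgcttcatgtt
Snord19: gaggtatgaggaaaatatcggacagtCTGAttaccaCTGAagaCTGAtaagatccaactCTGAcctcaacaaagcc
Snord57: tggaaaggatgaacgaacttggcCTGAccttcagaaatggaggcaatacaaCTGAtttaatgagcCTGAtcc
Snora75: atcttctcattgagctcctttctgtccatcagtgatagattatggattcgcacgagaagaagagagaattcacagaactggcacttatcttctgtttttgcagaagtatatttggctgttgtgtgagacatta
The final CTGA of the 3 box C/D RNAs lies near the end of the molecule, as box D does in this class.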

How the data were processed

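In the authors' processing, reads of 75 bases were aligned to mm10 (STAR), assigned to genes (featureCounts), quantile normalized and transformed with voom in limma. The submitters' processing notes name STAR 2.6.1a, Trim Galore 0.6.5 and Subread 2.0.1. The deposited values are log2 CPM, not counts, and no sample's own depth can be read from them. The most frequent value, -5.15, was taken as that of 0.5 reads, which puts 10 reads at -0.76 and 3 reads at -2.34. Nothing in the sources used here says whether strand was used in counting.

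The groups were tested against each other on the deposited values by a moderated linear model with a variance trend (limma 3.58.1, R 4.3.3), over genes above 10 reads in at least 3 samples, with Benjamini-Hochberg adjustment over all of them (FDR). The fit was tested on simulated data. P values rest on the spread between these samples in the deposited values. An adjustment by replicate number before deposit, which the values below that of a gene without reads leave possible, would alter this spread and with it every SE and FDR; this was not tested.

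Members and gene lists were chosen with earlier results of these data known. Every member is named. Full values were given for the 10 members with the largest and the 5 with the smallest log2FC, the 5 with the highest unstimulated level per length, and those not called raised. Of the other ribosome biogenesis genes, the 10 with the largest log2FC past the thresholds and the 5 most negative were named, and Myc was named.

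Deviations from group means were correlated across genes to check whether replicate numbers pair the samples. Correlations were 0.435, 0.224 and 0.300 for the same number and -0.281 to 0.0279 otherwise, so values of one number varied together. Samples of one number had the same sex, and the labels do not say what else they share. The replicate block was run as an alternative.

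Positions, exon overlaps, lengths (APPRIS principal transcript) and snoRNA sequences came from GENCODE M21 (GRCm38), and promoters from RefSeq (GRCm38.p6). Older symbols were matched through RefSeq. Alternatives covered the filter, the replicate block, each sample left out, the offset, centring, the variance trend and limma's treat against a log2FC of 1; leaving out replicate 2 of both groups was added after seeing the data.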

Additional observations from a re-analysis of the deposited data

How the results depend on the processing

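Under the alternatives run for calls at an FDR under 0.05, between 58 and 59 factors were raised and 1 lowered. With a log2FC over 1 the count was 44 with the replicate block, 40 to 46 with 1 sample left out, 42 with either offset or with samples centred on tested genes, 52 with samples centred on cytosolic ribosomal proteins, and 30 with limma's treat; treat also gave 914 raised and 968 lowered genes in all and 37 raised genes among the other ribosome biogenesis genes. The replicate block changed no call of the 76 genes named by rule. The median log2FC of the factors was 1.18 to 1.32 with 1 sample left out. Centring on cytosolic ribosomal proteins gave 5087 raised and 3006 lowered genes in all, against 4227 and 4123. It moved the median log2FC of the factors to 1.45 and that of the other ribosome biogenesis genes to 1.22, of which 3 were then lowered, and it gave 15 raised and 16 lowered cytosolic and 0 lowered mitochondrial ribosomal proteins. Lowered mitochondrial ribosomal proteins numbered 1 to 2 with 1 sample left out.

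Of 1140 values of 76 named genes, 1135 kept their direction and side of an FDR of 0.05. Taf1d had a log2FC of -0.03 without CpG-stimulated replicate 2 and -0.0555 without unstimulated replicate 3, in a range of -0.0555 to 0.0908 with 1 sample left out, and with that centring it was raised by 0.25 (FDR 0.0282 in limma, against a range up to 0.949). Ttf1 and Riok3 were no longer called with that centring. The cause of these changes was not tested. The 6 snoRNA genes that passed the filter had low values, with 10 reads at -0.76 log2 CPM. Their means were 0.06 to 1.96 log2 CPM with CpG and -0.74 to 0.67 without.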
